A study of Homo sapiens with 15 samples.

Results

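The comparison described here is of ZR-75-1 cells given dihydrotestosterone (DHT) with the same cells given vehicle. It rests on 6 of the 15 arrays of the study, 3 of DHT and 3 of vehicle, taken by the sample titles. Of the 34878 probe sets deposited, the 14841 that the platform annotation pairs with 1 gene symbol were analysed, and they stand for 14361 genes. ZR-75-1 is an established human breast cancer line that carries the estrogen receptor and has the features of luminal epithelium. The DHT cells received 10 nM DHT for 6 h, and the vehicle cells received 0.1% ethanol over the same 6 h. The other 9 arrays are of cells given 10 nM medroxyprogesterone acetate (MPA), progesterone (PROG) or dexamethasone (DEX) for 6 h, with 3 arrays each. The spelled-out compound names are the usual reading of the labels' abbreviations. The growth medium held 10% fetal bovine serum, and the labels name no serum freed of steroids, so the vehicle cells may have met steroids too. Titles of the vehicle arrays also call them untreated, and for the DHT cells the sources used here give no solvent, so an effect of ethanol and one of DHT cannot be told apart where the solvents differed. All cells are of 1 line, and the labels do not say whether the 3 arrays of a group came from separate cultures. The p-values below therefore speak of the spread among single arrays, and that spread may be technical.

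DHT is the reduced, more potent form of testosterone, and it cannot be converted to an estrogen by aromatase. It binds the androgen receptor, a nuclear receptor that then enters the nucleus, pairs with a second copy of itself and binds DNA at a short inverted repeat whose half-site is often written AGAACA. The receptors of progesterone and of glucocorticoids recognise much the same repeat. In the prostate this receptor drives secreted kallikreins, polyamine and lipid synthesis. In luminal breast cells it shares many sites with the pioneer factor FOXA1 and can act against estrogen signalling.

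Levels are RMA values on the log2 scale, so a difference of 1 is a doubling, and levels of different probe sets are not compared, other than to pick the brightest probe set of a gene. Over all probe sets the array medians ran from 3.69 to 3.73, and a probe set under the overall median of 3.7 in a group is called dim there. Differences are DHT minus vehicle ± the standard error of a limma fit over all 15 arrays, with n = 3 arrays per group. A probe set is called at a Benjamini-Hochberg adjusted p under 0.05 in that fit. All 15 measured luminal epithelial markers lay above the median in DHT or vehicle cells, among them GATA3, FOXA1, KRT18 and EPCAM. Of the markers of other cells, 2 of 6 basal, 2 of 5 fibroblast, 2 of 6 blood or endothelial and 0 of 7 prostate markers did so. None of these 24 markers was called. Among the luminal markers KRT19 was called higher with DHT (0.22 ± 0.045) and ESR1 lower, and both calls were lost in all 6 omissions of an array. As in any bulk sample, fewer cells with a transcript and less of it per cell cannot be told apart.

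The sequences shown are the promoters of C1orf116, the gene with the largest rise, and of FKBP5, a textbook steroid target. Mature strands of the 2 microRNA genes that were called follow. A part of these sequences in the response was not tested. Promoters are 250 bases before to 50 bases after the transcription start, in RefSeq on GRCh38.p14, read 5′ to 3′ on the strand of the gene. C1orf116 lies on the minus strand (chr1:207032707-207033006) and FKBP5 on the minus strand (chr6:35728534-35728833). Capitals in the FKBP5 promoter mark the half-site AGAACA, which starts at the first transcribed base. The letters AGAACA, on either strand, are absent from the C1orf116 window, so that sequence has no capitals.
C1orf116: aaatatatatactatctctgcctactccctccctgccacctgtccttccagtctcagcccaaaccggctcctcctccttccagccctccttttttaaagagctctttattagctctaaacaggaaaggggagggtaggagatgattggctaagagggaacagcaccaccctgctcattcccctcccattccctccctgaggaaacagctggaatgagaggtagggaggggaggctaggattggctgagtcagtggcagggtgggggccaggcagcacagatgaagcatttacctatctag
FKBP5: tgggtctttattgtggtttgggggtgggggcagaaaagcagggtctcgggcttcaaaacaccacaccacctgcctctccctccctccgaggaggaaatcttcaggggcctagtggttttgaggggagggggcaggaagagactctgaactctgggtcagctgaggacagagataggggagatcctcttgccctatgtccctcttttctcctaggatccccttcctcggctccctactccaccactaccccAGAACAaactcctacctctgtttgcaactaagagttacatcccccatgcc
The half-site AGAACA was searched on both strands of the windows of all genes that RefSeq's table holds. It stood in 7 of the 83 windows of raised genes, 8.434%, which are those of CSRNP1, CUL4B, EPGN, FKBP5, LEF1, PAIP2 and TTC39C. Among the genes that fell it stood in 2 of 13 windows, 15.385%, those of ESR1 and OBP2A. The share was 10.543% of the 10661 windows of all genes tested and 14.854% of all 27305 windows in the table. The full repeat, AGAACA and TGTTCT with any 3 bases between them, was in 1 of the 27305 windows, in 0 of the 10661 and in 0 of the raised or lowered genes. These windows are descriptions of 300 bases near each start and hold no enhancers.

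The microRNA sequences below have the seed, bases 2 to 8, in capitals. MIR21 lies on chromosome 17, plus strand (chr17:59841273-59841294 for the mature strand), and MIR191 on chromosome 3, minus strand (chr3:49020672-49020694 and chr3:49020631-49020652), all in RefSeq on GRCh38.p14.
hsa-miR-21-5p: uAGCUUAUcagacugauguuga
hsa-miR-191-5p: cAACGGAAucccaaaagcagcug
hsa-miR-191-3p: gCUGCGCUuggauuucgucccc
Of the 2370 mature strands in the table, hsa-miR-590-5p alone shares the seed of hsa-miR-21-5p, and each of the other two seeds belongs to 1 strand.

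The question of the comparison was which genes respond to an androgen within 6 h. DHT raised many more genes than it lowered, and the rises were the larger changes. Of the 14841 probe sets, 132 were called (0.889%), 115 of them higher with DHT (0.775%) and 17 lower (0.115%). A change of at least 1.5-fold was seen for 25 called probe sets (0.168%), all of them higher with DHT, and for 6 of those it was at least 2-fold. The median size of the called changes was 0.375, and the median change of all probe sets was -0.0033. In each of the 132 the 3 DHT arrays and the 3 vehicle arrays did not overlap, a pattern that 12.7% of all probe sets showed. The calls numbered 66 without DHT 2 and 79 without either DHT 1 or vehicle 2. At an unadjusted p under 0.05 there were 1469. Of the called probe sets 127 belonged to protein-coding genes (1.04% of the 12226 tested), 2 to microRNA genes (0.273% of 732) and 0 to long non-coding RNA genes (0% of 1365). Only 5 of them were dim in both groups, FGF11, ZNF385B, KRTAP10-5, ESS2 and NCR1.

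**Figure D1:**
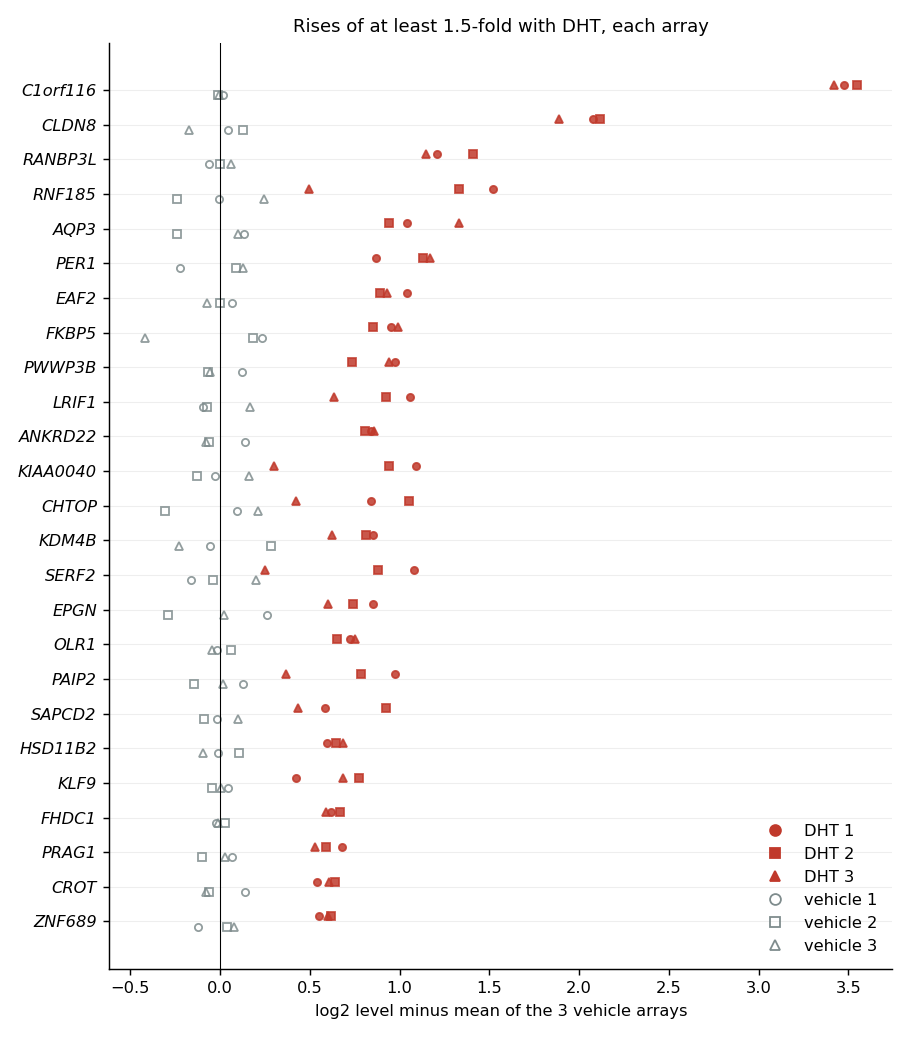
Each array's log2 level minus the mean of the 3 vehicle arrays, for the 25 probe sets raised at least 1.5-fold by DHT (filled red) over vehicle (open grey); the 3 marker shapes stand for replicates 1 to 3. C1orf116 stands near 3.5 on all 3 DHT arrays, while DHT 3 falls well short of DHT 1 and DHT 2 for RNF185, KIAA0040, CHTOP, SERF2 and PAIP2.

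C1orf116 encodes a cytoplasmic protein first described as specifically androgen-regulated. Its level was 10.20, 10.27 and 10.14 in the DHT arrays, against 6.74, 6.71 and 6.72 in the vehicle arrays. The arrays of a group lay within 0.13 of each other, and the groups stood 3.48 ± 0.056 apart (11.2-fold, limma adjusted p = 3.70e-14). CLDN8, a claudin of epithelial tight junctions, had levels of 7.63, 7.67 and 7.44 with DHT and 5.60, 5.68 and 5.38 with vehicle. Replicate 3 was the lowest in both groups, and the difference was 2.03 ± 0.085 (limma adjusted p = 1.00e-08). RANBP3L, a RAN-binding protein, had 4.74, 4.94 and 4.68 with DHT, against 3.47, 3.53 and 3.59 with vehicle. All 3 vehicle values were dim, so its difference of 1.26 ± 0.097 may understate the change (limma adjusted p = 1.18e-05). These calls held with any 1 of the 6 arrays left out.

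AQP3, a water and glycerol channel, had levels of 6.95, 6.85 and 7.24 with DHT and 6.04, 5.67 and 6.01 with vehicle. The lowest DHT array stood 0.81 above the highest vehicle array, and the difference was 1.11 ± 0.11 (limma adjusted p = 1.07e-04). OLR1, a scavenger receptor for oxidised lipoprotein, had 5.99, 5.92 and 6.02 with DHT, against 5.25, 5.33 and 5.22 with vehicle. Both groups were tight, and it rose by 0.71 ± 0.078 (limma adjusted p = 2.45e-04). PARM1, a mucin-like membrane protein first found as androgen-regulated in rat prostate, had 8.86, 8.84 and 8.86 with DHT and 8.44, 8.33 and 8.40 with vehicle. It rose by 0.46 ± 0.047 (limma adjusted p = 1.07e-04). TARP, a protein read from the T-cell receptor gamma locus and known from prostate epithelium, rose by 0.50 ± 0.056, and NRP1, a co-receptor for semaphorins and VEGF, by 0.42 ± 0.049. KRT4, a keratin of stratified epithelia, rose by 0.52 ± 0.081. PALMD, a palmdelphin of the paralemmin family, rose by 0.49 ± 0.068, and IQGAP2, a scaffold that binds small GTPases, by 0.41 ± 0.061. All of these calls held with any 1 of the 6 arrays left out.

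Genes with known roles in receptor handling, transcription or chromatin were among the rises, though few members of the lists for them were called, as given below. FKBP5, whose promoter is shown above, encodes a co-chaperone that lowers hormone binding by steroid receptors. It had levels of 5.20, 5.10 and 5.24 with DHT, against 4.48, 4.43 and 3.83 with vehicle. Vehicle 3 was the low array of its group, and without it the difference was 0.73 in place of 0.93 ± 0.13 (limma adjusted p = 9.19e-04 and 0.00299). EAF2, an ELL-associated elongation factor that androgen raises in the prostate, had 8.42, 8.27 and 8.31 with DHT and 7.45, 7.38 and 7.31 with vehicle. Its groups were far apart for their spread, by 0.95 ± 0.062 (limma adjusted p = 2.06e-06). KDM4B, a demethylase of histone H3 lysine that androgen and estrogen receptors recruit, had 7.42, 7.38 and 7.19 with DHT and 6.51, 6.85 and 6.34 with vehicle. The vehicle arrays spread over 0.51, and the difference was 0.76 ± 0.11 (limma adjusted p = 0.00241). Fitted on the 6 arrays of DHT and vehicle alone, FKBP5 and KDM4B lost their calls (limma adjusted p = 0.103 and 0.0903). KLF9, a Krüppel-like factor that answers to several steroid receptors, had 6.12, 6.47 and 6.38 with DHT and 5.74, 5.65 and 5.70 with vehicle, with DHT 1 the lowest of the treated arrays. It rose by 0.63 ± 0.092 (limma adjusted p = 0.00348).

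Further transcription factors and other regulators rose, most of them by smaller steps, with PER1 and PWWP3B as exceptions. BCL6, a BTB zinc finger repressor, rose by 0.53 ± 0.053 (limma adjusted p = 1.07e-04), with 8.43, 8.58 and 8.45 in the DHT arrays and 7.92, 7.96 and 7.98 in the vehicle arrays. LEF1, a nuclear partner of beta-catenin, rose by 0.50 ± 0.074, and CSRNP1, a nuclear protein induced by AXIN1, by 0.51 ± 0.063. ZNF652 and ZNF703, zinc finger repressors expressed in luminal breast cells, rose by 0.48 ± 0.056 and 0.39 ± 0.055. The epithelial factors EHF, of the ETS family, and GRHL2, of the grainyhead family, rose by 0.45 ± 0.040 and 0.29 ± 0.042. PWWP3B, a PWWP-domain protein encoded on the X chromosome, had 5.62, 5.38 and 5.59 with DHT and 4.77, 4.58 and 4.59 with vehicle, a difference of 0.88 ± 0.070 (limma adjusted p = 1.25e-05). ZNF689, a zinc finger protein, rose by 0.59 ± 0.087. These calls held with any 1 of the 6 arrays left out. PER1, a repressor of the circadian clock, had levels of 6.78, 7.04 and 7.08 with DHT and 5.69, 6.00 and 6.04 with vehicle. Replicate 1 was the lowest array of both groups, and the difference was 1.06 ± 0.10 (limma adjusted p = 1.07e-04).

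Enzymes of steroid, sugar and lipid handling were also among the rises, though few members of the steroid and lipid lists were called, as given below. HSD11B2, which inactivates cortisol to cortisone, had 7.87, 7.92 and 7.96 with DHT and 7.26, 7.38 and 7.18 with vehicle. It rose by 0.64 ± 0.065 (limma adjusted p = 1.07e-04), with no overlap of arrays. UGDH makes UDP-glucuronate, the sugar donor with which cells conjugate androgens among other compounds. It had 11.46, 11.54 and 11.53 with DHT, and each DHT array stood at least 0.46 above every vehicle array, whose lowest value was 10.94. The difference was 0.55 ± 0.047 (limma adjusted p = 2.84e-05). CROT, a peroxisomal carnitine octanoyltransferase, had 8.41, 8.51 and 8.48 with DHT and 8.01, 7.81 and 7.79 with vehicle, a difference of 0.60 ± 0.059 (limma adjusted p = 1.07e-04). CRAT, the carnitine acetyltransferase, rose by 0.38 ± 0.067, a call lost without DHT 2 (limma adjusted p 0.00784 to 0.0557 over the 6 omissions). GPCPD1, which hydrolyses glycerophosphocholine, rose by 0.51 ± 0.073, and GLUL, the glutamine synthetase, by 0.30 ± 0.047. ACACA, the acetyl-CoA carboxylase of fatty acid synthesis, rose by 0.18 ± 0.036 (limma adjusted p = 0.0344), and that call held only without DHT 1 when 1 of the 6 arrays was left out (adjusted p 0.0469 to 0.138). THRSP, a regulator of lipogenesis, had 5.91, 5.92 and 5.82 with DHT and 4.99, 5.10 and 5.04 with vehicle. Its arrays were far apart but its difference of 0.84 ± 0.19 was not called (limma adjusted p = 0.0560). The error in that fit is shared over all 5 groups, and the 3 MPA arrays of THRSP were 5.44, 6.24 and 6.54.

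Signalling genes that rose included ligands, inhibitors and cytoskeletal regulators. EPGN, a ligand of the EGF receptor, had 6.49, 6.38 and 6.24 with DHT, against 5.90, 5.35 and 5.66 with vehicle. It rose by 0.73 ± 0.11 (limma adjusted p = 0.00351), a call lost in a fit of the 6 arrays alone (limma adjusted p = 0.120). LRIG1, which dampens EGF receptor family signals, rose by 0.29 ± 0.049, and SPRY4, an inhibitor of receptor tyrosine kinase signalling, by 0.48 ± 0.091. The SPRY4 call held only without vehicle 1 when 1 array was left out (adjusted p 0.00924 to 0.103). The secreted proteins THBS1, a matricellular protein, and TSKU, a leucine-rich repeat protein, rose by 0.48 ± 0.053 and 0.40 ± 0.040. ARHGEF26, a guanine nucleotide exchange factor, rose by 0.58 ± 0.050, and RHOB, a small GTPase, by 0.30 ± 0.049. FHDC1, a formin, had 7.83, 7.88 and 7.80 with DHT and 7.19, 7.24 and 7.20 with vehicle, a difference of 0.63 ± 0.068. PRAG1, a pseudokinase, rose by 0.60 ± 0.065, ANKRD22, an ankyrin repeat protein, by 0.84 ± 0.060 and PRR15, a proline-rich protein, by 0.56 ± 0.044. The estrogen-response gene GREB1 rose by 0.36 ± 0.047 (limma adjusted p = 0.00114), and BCL2L1, which encodes the survival protein BCL-XL, by 0.25 ± 0.043 (limma adjusted p = 0.0119). The BCL2L1 call was lost without vehicle 3, DHT 1 or DHT 2 (adjusted p 0.0263 to 0.0541 over the 6).

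Non-coding RNAs made up few of the rises. RMRP, the RNA of the RNase MRP complex, had 10.92, 11.02 and 10.80 with DHT and 10.59, 10.58 and 10.53 with vehicle, a difference of 0.35 ± 0.061 (limma adjusted p = 0.0125). RPPH1, the RNA of RNase P, rose by 0.25 ± 0.054 (limma adjusted p = 0.0486). The RMRP call held with 3 of the 6 arrays left out in turn (adjusted p 0.00462 to 0.0673) and the RPPH1 call with 0 of 6 (0.0931 to 0.179). MIR21, a microRNA gene raised in many tumours, had 7.71, 8.04 and 7.94 with DHT, against 7.57, 7.49 and 7.45 with vehicle. DHT 1 stood only 0.14 above the highest vehicle array, and the difference was 0.39 ± 0.084 (limma adjusted p = 0.0452). The MIR21 call held only without DHT 1 (adjusted p 0.0132 to 0.185 over the 6). A probe set assigned to a microRNA gene cannot separate the mature strand shown above from its precursor.

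The falls were shallow, between -0.20 and -0.55. BCL2, an inhibitor of apoptosis, had levels of 8.59, 8.67 and 8.70 with DHT, against 9.02, 9.04 and 8.96 with vehicle. It fell by 0.35 on the log2 scale with a standard error of 0.039 (limma adjusted p = 2.60e-04). SOSTDC1, a secreted antagonist of BMP and WNT ligands, had 4.71, 4.58 and 4.55 with DHT and 4.97, 5.15 and 5.12 with vehicle, a difference of -0.47 ± 0.073 (limma adjusted p = 0.00546). NCR1, a receptor of natural killer cells, had a difference of -0.29 ± 0.043 (limma adjusted p = 0.00330) but was dim in both groups. These 3 were the falls whose calls held with any 1 of the 6 arrays left out, against 52 of the 115 rises. MIR191 had 4.49, 4.40 and 4.48 with DHT, against 5.05, 5.02 and 4.94 with vehicle. Its difference was the lowest of the called ones, -0.55 ± 0.11 (limma adjusted p = 0.0393), and its call was lost in all 6 omissions of 1 array, with adjusted p from 0.0777 to 0.146. CXCR4, the receptor of the chemokine CXCL12, had 4.68, 4.50 and 4.81 with DHT and 5.18, 5.16 and 5.27 with vehicle, and its call (-0.54 ± 0.12, limma adjusted p = 0.0486) held only without DHT 3.

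The other falls were of genes with varied roles. AMIGO2, a cell adhesion protein, had 7.74, 7.70 and 7.82 with DHT and 8.24, 8.31 and 8.13 with vehicle, a difference of -0.47 ± 0.10 (limma adjusted p = 0.0486). NRCAM, an adhesion molecule of neurons, had 4.40, 4.63 and 4.77 with DHT, against 4.96, 4.99 and 5.09 with vehicle. DHT 1 was its low array, and the difference was -0.41 ± 0.075 (limma adjusted p = 0.0162). SYT1, a calcium sensor of vesicle release, had a difference of -0.34 ± 0.059, and ERC2, a scaffold of the presynaptic active zone, one of -0.23 ± 0.051. OBP2A, an odorant-binding lipocalin, had 3.81, 3.82 and 3.80 with DHT, close to the dim range, against 4.03, 4.54 and 4.26 with vehicle, a difference of -0.47 ± 0.095. PDE7B, a cyclic AMP phosphodiesterase, fell by 0.39, TRERF1, a zinc finger co-activator of steroidogenic genes, by 0.31, and BAMBI, a decoy receptor of TGF-beta signalling, by 0.29 on the log2 scale. ENC1, an actin-binding kelch protein, fell by 0.22, GPAT3, an acyltransferase of triglyceride synthesis, by 0.21, and KLHDC10, a kelch-domain protein, by 0.20. Without 1 array at a time, the number of called falls ran down to 5 without DHT 2, with 7 without DHT 1, 10 without vehicle 3 and 11 without vehicle 2. Over these omissions the adjusted p of AMIGO2 ran from 0.0713 to 0.176 and that of NRCAM from 0.00243 to 0.0752. The calls of AMIGO2, ENC1 and GPAT3 held in 0 of the 6 omissions, those of OBP2A, PDE7B, TRERF1, ERC2 and KLHDC10 in 1, and those of NRCAM and BAMBI in 3.

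**Figure D2:**
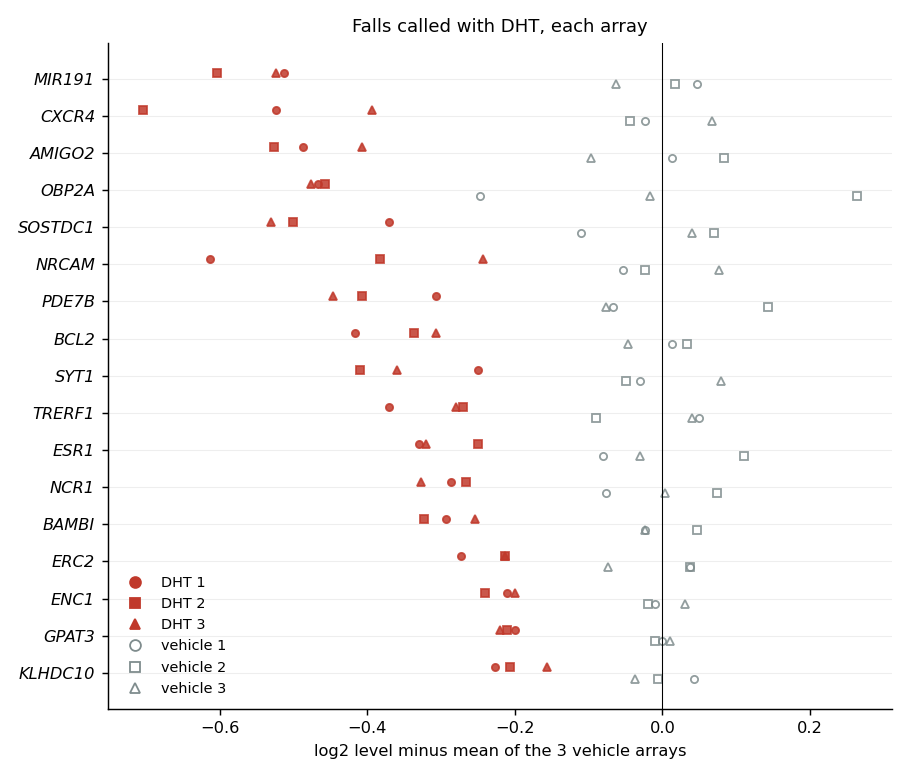
Each array's log2 level minus the mean of the 3 vehicle arrays, for the 17 probe sets lowered by DHT (filled red) under vehicle (open grey); the 3 marker shapes stand for replicates 1 to 3. The 3 DHT arrays lie left of the 3 vehicle arrays in every row, and no difference reaches 1.5-fold.

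Of the single genes given in this paragraph, ESR1 alone was called. Androgen-induced genes that were called, such as FKBP5 and EAF2, are given in other paragraphs. ESR1, the estrogen receptor gene, had 7.72, 7.80 and 7.73 with DHT, against 7.97, 8.16 and 8.02 with vehicle. Its difference of -0.30 ± 0.065 was called (limma adjusted p = 0.0486), and the call was lost in each omission of 1 array, where the adjusted p lay between 0.0517 and 0.175. PGR, the progesterone receptor gene, had 8.0, 8.06 and 8.10 with DHT and 8.34, 8.33 and 8.22 with vehicle, without overlap, but was not called (-0.24 ± 0.056, limma adjusted p = 0.0634). FOXA1 (-0.04 ± 0.047), CCND1, the gene of cyclin D1 (0.06 ± 0.054), and the proto-oncogene MYC (0.00 ± 0.049) were not called and showed small errors. KLK2 and KLK3, the prostate kallikreins, were dim in both groups, with differences of 0.20 ± 0.062 and -0.03 ± 0.078, and no statement on a change is made for them. SGK1, a kinase that answers to glucocorticoids and mineralocorticoids, was dim too (-0.04 ± 0.064). PIP, prolactin-induced protein of apocrine cells, had 8.13, 8.06 and 8.03 with DHT and 7.90, 8.0 and 8.04 with vehicle, with overlap and no call (0.09 ± 0.067). NR3C1, TMPRSS2, AZGP1, SEC14L2 and TSC22D3 have no named probe set and were not analysed here.

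Gene lists were described by the number of their measured members that were called, with 1 probe set per gene, the one brightest on average. On that basis 0.731% of the 14361 genes were called higher with DHT and 0.118% lower. Of 31 measured androgen-induced genes, known mostly from prostate, 9 rose and 0 fell, with a median difference of 0.187. Those that rose were C1orf116, CLDN8, EAF2, FKBP5, KLF9, CROT, IQGAP2, HERC3 (0.29 ± 0.049) and LRIG1. The HERC3 call was lost without DHT 2 (adjusted p = 0.0533 in limma). The androgen-induced genes that were not called included SPDEF, a luminal ETS factor (0.19 ± 0.045, limma adjusted p = 0.0773), NDRG1 (0.23 ± 0.17) and TPD52 (0.10 ± 0.054). Of 14 androgen-repressed genes 2 fell, ESR1 and BCL2, and 1 rose, THBS1. Progestin-induced genes rose in 6 of 29 cases, glucocorticoid-induced genes in 4 of 27 and estrogen-induced genes in 3 of 26, where 1 also fell. FKBP5 and KLF9 belong to the androgen, progestin and glucocorticoid lists, so these counts overlap. The medians of the last 3 lists were 0.07, 0.06 and 0.032, against 0.187 for the androgen-induced list. All lists were written with earlier results of these data known, so these counts and medians only describe them. The estrogen list had 1 called rise, in place of 3, without vehicle 1, vehicle 2, DHT 1 or DHT 3. In a fit of the 6 arrays alone 5 members of the androgen-induced list were called higher.

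Among structural and metabolic groups most lists held 1 called member or none. CLDN8 was the 1 of 26 claudins and related tight junction genes that rose, AQP3 the 1 of 13 channel and transport genes, KDM4B the 1 of 23 histone demethylases and EAF2 the 1 of 11 elongation factors. HSD11B2 was the 1 of 13 steroid enzymes. Of 13 clock genes PER1 and CRY2 (0.20 ± 0.041) rose, and the CRY2 call held only without DHT 3 when 1 array was left out (adjusted p 0.0394 to 0.146). Of the BCL2 family, with 18 measured, BCL2L1 rose and BCL2 fell. Of 28 WNT and BMP genes, BAMBI and SOSTDC1 fell, and the BAMBI call was lost without vehicle 2, DHT 1 or DHT 2 (adjusted p 0.0304 to 0.0898). None of 18 apocrine and secreted breast proteins was called, though AGR3, a secreted disulfide isomerase relative, had 8.66, 8.58 and 8.26 with DHT and 8.19, 8.14 and 8.0 with vehicle (0.39 ± 0.099, limma adjusted p = 0.0933). ALCAM, an adhesion molecule, was close to the threshold (0.20 ± 0.045, limma adjusted p = 0.0511). No member was called among 18 sterol synthesis genes, 14 polyamine enzymes, 24 immediate early genes, 17 unfolded protein response genes, 29 G1-S genes, 26 mitotic genes or 6 housekeeping genes. Their medians lay between -0.0083 and 0.03. Of 25 fatty acid genes ACACA was the 1 called. Of 22 chemokine and Notch repressor genes CXCR4 was.

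**Figure D3:**
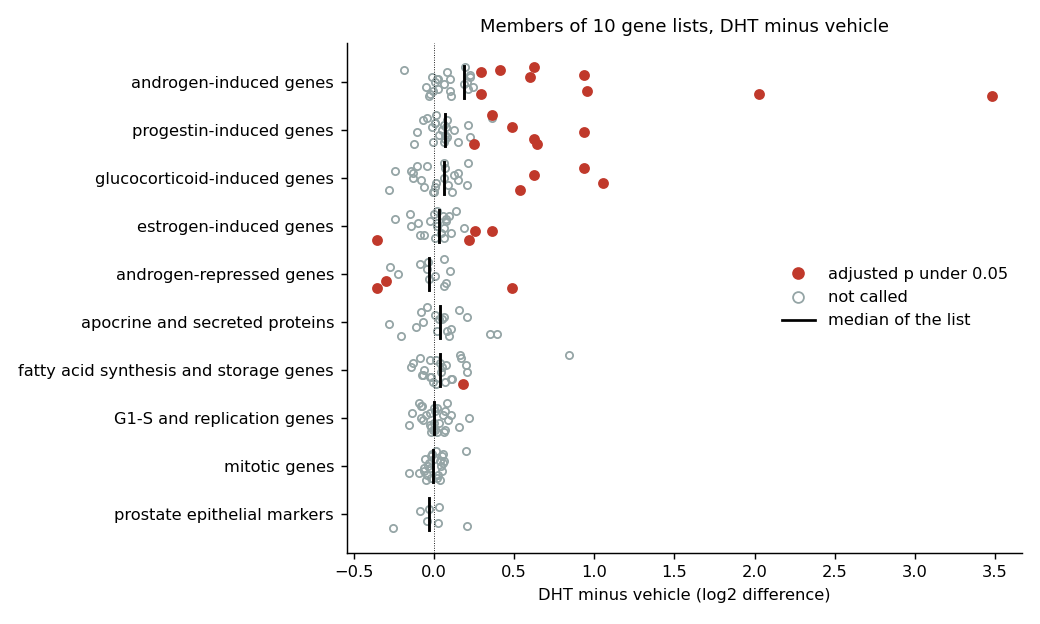
DHT minus vehicle, as a log2 difference, for each measured member of 10 gene lists (1 point per gene, filled red where called, black bar for the median of the list). The androgen-induced list holds the 2 largest differences, C1orf116 at 3.48 and CLDN8 at 2.03, while the G1-S, mitotic and prostate lists have no called member.

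The 3 DHT arrays agreed closely over all probe sets, with correlations of 0.9973 to 0.9978, and no array was a copy of another. DHT 3 nevertheless stood apart on a set of probe sets. It lay more than 0.3 below both other DHT arrays on 139 named probe sets, where DHT 1 did so on 65 and DHT 2 on 68. Over the 12 arrays of the other groups this number ran from 56 to 161, with MPA 1 at the top. DHT 3 lay above both others by as much on 125, where DHT 1 did so on 90 and DHT 2 on 123. In the other groups that number ran from 106 to 152, so the high side of DHT 3 was within their range. At a gap over 0.2 it lay above on 414 and below on 344, and at one over 0.5 above on 14 and below on 32. Among the 115 called rises 5 had DHT 3 low in this way, against 139 of all 14841 named probe sets. They were RNF185, KIAA0040, CHTOP, SERF2 and PAIP2, and all 5 belong to the 25 of at least 1.5-fold. Over the 115 rises DHT 1 alone was the lowest DHT array on 40, DHT 2 on 25 and DHT 3 on 42. Their median excess over the vehicle mean was 0.36 in DHT 1, 0.41 in DHT 2 and 0.37 in DHT 3. Without DHT 3 the number of calls of at least 1.5-fold was 45, against 15 without DHT 2 and 16 without vehicle 2.

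RNF185, a ubiquitin ligase of the endoplasmic reticulum, had 6.41, 6.22 and 5.38 with DHT, against 4.88, 4.65 and 5.13 with vehicle. DHT 3 stood 0.25 above vehicle 3, while DHT 1 and DHT 2 stood at least 1.09 above every vehicle array. The difference was 1.12 ± 0.23 (limma adjusted p = 0.0352), and over the 6 omissions the adjusted p ran from 0.00112 without DHT 3 to 0.149 without DHT 2. SERF2, a small protein that promotes amyloid formation, had 6.96, 6.76 and 6.13 with DHT and 5.72, 5.84 and 6.08 with vehicle. DHT 3 was only 0.05 above vehicle 3, and the call (0.74 ± 0.16, limma adjusted p = 0.0486) held only without DHT 3 (adjusted p 5.04e-04 to 0.192). CHTOP, a chromatin and mRNA export protein, had 7.21, 7.42 and 6.79 with DHT and 6.46, 6.06 and 6.58 with vehicle (0.77 ± 0.15, limma adjusted p = 0.0245). KIAA0040 had 6.81, 6.66 and 6.02 with DHT and 5.69, 5.59 and 5.88 with vehicle (0.78 ± 0.15, limma adjusted p = 0.0256). PAIP2, an inhibitor of the poly(A)-binding protein, had 6.20, 6.01 and 5.59 with DHT and 5.35, 5.08 and 5.24 with vehicle (0.71 ± 0.14, limma adjusted p = 0.0313). In all of these the vehicle 3 array was not low, so replicate 3 did not run low in both groups. CHTOP, KIAA0040 and PAIP2 lost their calls without vehicle 2, DHT 1 or DHT 2, KIAA0040 also without vehicle 1 and PAIP2 also without vehicle 3, with adjusted p up to 0.114, 0.125 and 0.129. RNF185 lost its call in 4 of the 6 omissions. In a fit of the 6 DHT and vehicle arrays alone all 5 lost their calls, with limma adjusted p of 0.223 for RNF185, 0.320 for SERF2, 0.238 for CHTOP, 0.249 for KIAA0040 and 0.190 for PAIP2.

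These 5 genes each have another probe set, and in none of them was it called. For RNF185 the other probe set had 7.46, 7.44 and 7.38 with DHT and 7.38, 7.48 and 7.49 with vehicle, a difference of -0.02 ± 0.062. The other probe sets of CHTOP (-0.02 ± 0.040), KIAA0040 (0.05 ± 0.050), SERF2 (0.00 ± 0.047) and PAIP2 (-0.09 ± 0.044) had intervals that reach no more than 0.16 in either direction on the log2 scale, apart from PAIP2, whose interval ran from -0.19 to 0.00033. LRIF1, a nuclear receptor-interacting protein, rose on 1 probe set (0.87 ± 0.15, limma adjusted p = 0.0124), with 5.05, 4.92 and 4.63 in DHT arrays and 3.90, 3.92 and 4.16 in vehicle arrays, and differed by -0.04 ± 0.085 on the other. SAPCD2, a cell polarity protein, rose by 0.65 ± 0.13 on 1 of its 3 probe sets and differed by -0.01 ± 0.074 and 0.00 ± 0.056 on the others. In all, 13 called genes have a further named probe set, and in 0 of the 13 was it called. For KIAA1671 and PREP, a cytosolic peptidase, the further probe set pointed the same way (0.19 ± 0.089 and 0.20 ± 0.098). For GALNT2, CBX6, ESS2 and IER3 it differed by 0.04, -0.02, 0.01 and 0.13. The LRIF1 call was lost without vehicle 1, vehicle 2, DHT 1 or DHT 2 (adjusted p up to 0.0689), and that of SAPCD2 held only without DHT 3 (adjusted p up to 0.128). SAPCD2 also lost its call in the fit of the 6 arrays alone (limma adjusted p = 0.129).

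**Figure D4:**
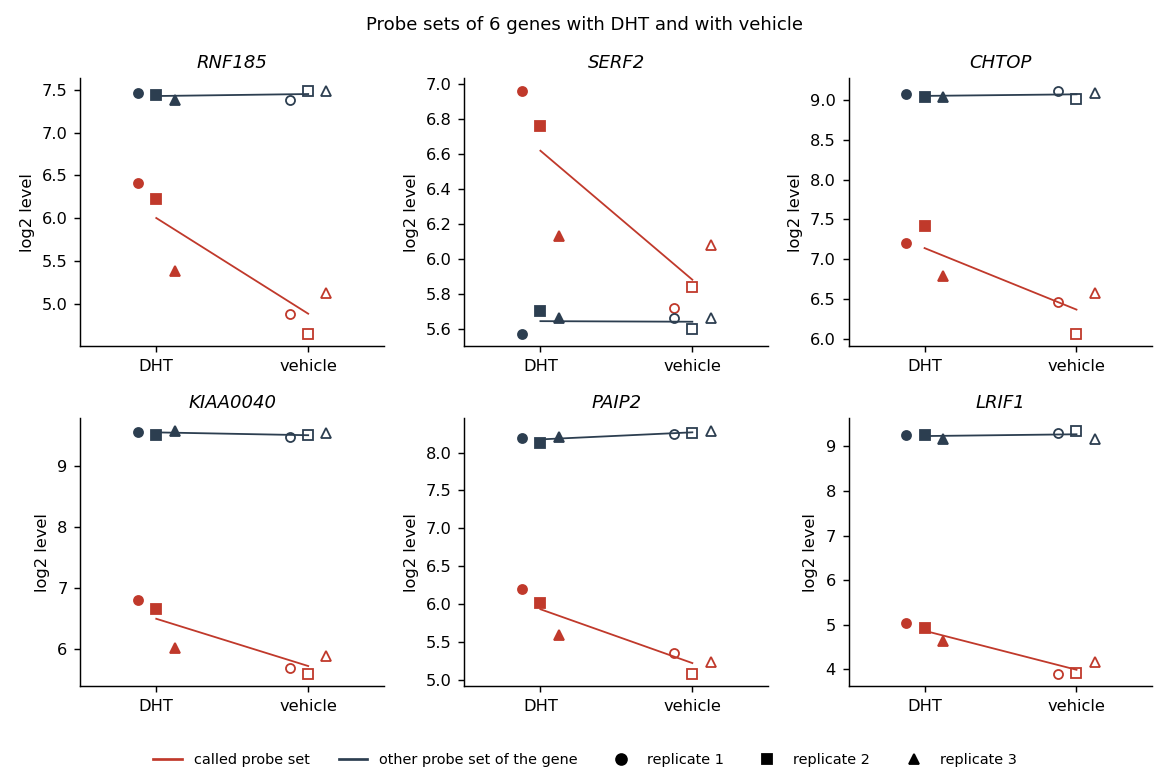
Log2 levels of 2 probe sets of each of 6 genes with DHT (left) and vehicle (right); red is the called probe set, dark blue the other, lines join the group means and shapes stand for replicates 1 to 3. The red DHT 3 triangle sits below DHT 1 and DHT 2 in all 6, while the dark blue points change by less than 0.1 on average.

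Of the 139 probe sets on which DHT 3 was low, 45 belonged to genes with several named probe sets, 32.4%, against 5.96% of all, and 37 were not the brightest of their gene, 26.6% against 3.23%. ABHD11, a mitochondrial hydrolase, had the widest gap, with 6.39, 6.17 and 4.91 with DHT and 4.64, 4.33 and 4.92 with vehicle, and was not called (1.19 ± 0.29, limma adjusted p = 0.0776). EAF1, a relative of EAF2, had 6.65, 6.97 and 5.73 with DHT and 5.59, 5.57 and 5.72 with vehicle (0.82 ± 0.21, limma adjusted p = 0.0906). FDPS, the farnesyl diphosphate synthase, had 6.87, 6.79 and 5.90 with DHT and 5.84, 5.40 and 5.63 with vehicle (0.90 ± 0.20, limma adjusted p = 0.0558). DHT 3 lay 0.01 below the highest vehicle array for ABHD11, 0.01 above it for EAF1 and 0.06 above it for FDPS, while DHT 1 and DHT 2 lay above all vehicle arrays in each. EAF1 and FDPS each have a brighter probe set, which differed by 0.01 ± 0.036 and 0.12 ± 0.079 and was not called. Of EAF1 that probe set had 9.71, 9.73 and 9.70 with DHT and 9.71, 9.73 and 9.66 with vehicle. LOC100288637, LINC01061, LOC100240734 and DDTL completed the 8 widest gaps, with differences of -0.19, 0.39, -0.39 and 0.48, none called. The sources used here give no RNA quality or hybridisation values of single arrays, and their part in this pattern was not tested.

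The other compounds were given at the same dose and for the same time, and DHT was compared with each of them in the same fit, where the vehicle arrays enter only the shared estimate of the spread. The 4 steroids differ in structure. DHT has a hydroxyl group where PROG has an acetyl side chain, MPA carries a further methyl and an acetoxy group on the progesterone skeleton, and DEX is a fluorinated corticosteroid. Against MPA 145 probe sets were higher with DHT (0.977%) and 376 lower (2.53%). The calls against MPA came to 521 in all (3.51%). Against PROG 254 were called (1.71%), 52 higher with DHT (0.350%) and 202 lower (1.36%). Against DEX 97 were called (0.654%), of which 38 were higher with DHT (0.256%) and 59 lower (0.398%). With 1 adjustment over the 3 pairs together, an alternative chosen after seeing the data, the calls were 435 against MPA, 264 against PROG and 162 against DEX. Of the 115 probe sets raised by DHT over vehicle, 13 were higher with DHT than with MPA and 47 lower, 18 higher than with PROG and 27 lower, and 25 higher than with DEX and 8 lower. Both selections use the DHT arrays, so these counts are a description. The remaining 55, 70 and 82 were not called either way. Without DHT 1 the calls against DEX were 62 and those against PROG 168, as they also were without PROG 2. Without DHT 2 those against DEX were 64. The split moved too. Against PROG the probe sets higher with DHT numbered 29 without PROG 1, 33 without PROG 3 and 31 without DHT 2, and the lower ones 131 without PROG 2 and 130 without DHT 1. Against DEX 67 were higher with DHT, of 135 in all, without DHT 3, and the lower ones numbered 33 without DHT 1, 38 without DHT 2 and 35 without DEX 3.

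**Figure D5:**
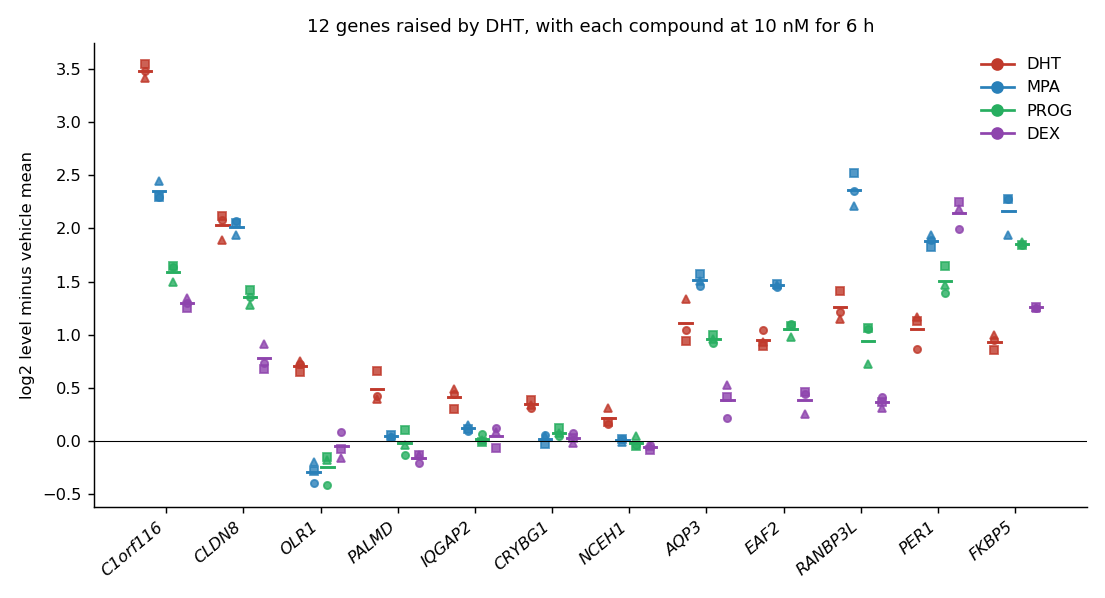
Log2 level minus the vehicle mean of 12 genes raised by DHT, on each array of DHT, MPA, PROG and DEX (points, with a bar for the mean of 3). OLR1, PALMD, IQGAP2, CRYBG1 and NCEH1 lie above the vehicle line with DHT and near or under it with the other 3, while PER1 and FKBP5 lie higher with MPA and PROG than with DHT.

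C1orf116 was higher with DHT than with any other compound. Its MPA arrays had 9.02, 9.02 and 9.17, its PROG arrays 8.36, 8.37 and 8.22 and its DEX arrays 8.02, 7.97 and 8.07. DHT exceeded MPA by 1.13 ± 0.056, PROG by 1.89 ± 0.056 and DEX by 2.18 ± 0.056, and no arrays overlapped (limma adjusted p = 4.07e-08, 1.64e-10 and 2.23e-11). CLDN8 had 7.62, 7.60 and 7.49 with MPA and was not called against it, at a difference of 0.01 with a 95% interval of -0.17 to 0.19. It was higher with DHT than with PROG, by 0.68 ± 0.085, and than with DEX, by 1.25 ± 0.085 (limma adjusted p = 4.31e-04 and 6.20e-06). AQP3 was higher with DHT than with DEX (0.72 ± 0.11, limma adjusted p = 0.00465), while the differences from MPA (-0.40, 95% interval -0.64 to -0.17) and PROG (0.15, -0.09 to 0.38) were not called. In a fit of the DHT and DEX arrays alone the AQP3 call was lost (limma adjusted p = 0.0927).

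A small set rose with DHT over vehicle and stood above all 3 other compounds, namely C1orf116, OLR1, PALMD, IQGAP2, CRYBG1, NCEH1 and 1 probe set of GALNT2. OLR1 had 4.87, 4.99 and 5.07 with MPA and 4.85, 5.12 and 5.09 with PROG, all below every vehicle array, and 5.35, 5.19 and 5.11 with DEX. DHT exceeded MPA by 1.00 ± 0.078, PROG by 0.96 ± 0.078 and DEX by 0.76 ± 0.078 (limma adjusted p = 1.83e-06, 8.60e-06 and 2.92e-04). PALMD had 7.26, 7.28 and 7.26 with MPA, 7.09, 7.33 and 7.19 with PROG and 7.02, 7.09 and 7.09 with DEX. DHT exceeded them by 0.45 ± 0.068, 0.51 ± 0.068 and 0.65 ± 0.068. IQGAP2 exceeded the 3 by 0.29, 0.39 and 0.37, CRYBG1, a crystallin-domain protein, by 0.32, 0.27 and 0.32, and NCEH1, a cholesteryl ester hydrolase, by 0.21, 0.23 and 0.28, in the order MPA, PROG and DEX. With 1 array of a pair left out, the limma adjusted p reached 0.0603, 0.0175 and 0.0564 for IQGAP2, 0.0180, 0.0990 and 0.0803 for CRYBG1 and 0.104, 0.101 and 0.0710 for NCEH1. The CRYBG1 call against PROG held in 1 of those 6 omissions and the NCEH1 call against MPA in 2. The GALNT2 probe set exceeded the 3 compounds by 0.51, 0.37 and 0.52, and its call against PROG held in 2 of 6 omissions (adjusted p up to 0.106). In fits of the 6 arrays of a pair alone, C1orf116 and OLR1 passed against all 3 compounds. PALMD then missed the threshold against PROG (limma adjusted p = 0.0555), IQGAP2 against MPA and DEX (0.0655 and 0.182), CRYBG1 against DEX (0.0588), GALNT2 against PROG and DEX (0.202 and 0.107) and NCEH1 against all 3 (0.159, 0.180 and 0.177). The NCEH1 rise over vehicle, 0.22 ± 0.048, was lost whichever of the 6 arrays was omitted, at adjusted p of 0.0626 to 0.179.

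Genes with a smaller rise under DHT than under at least 1 of the other steroids included several classic steroid targets. FKBP5 had 6.52, 6.52 and 6.18 with MPA, 6.09, 6.09 and 6.12 with PROG and 5.50, 5.51 and 5.50 with DEX. DHT was lower than MPA by -1.23 ± 0.13 and than PROG by -0.92 ± 0.13 (limma adjusted p = 5.73e-05 and 0.00144), while the difference from DEX, -0.32 with a 95% interval of -0.61 to -0.04, was not called. PER1 was lower with DHT than with MPA (-0.83 ± 0.10), PROG (-0.45 ± 0.10) and DEX (-1.08 ± 0.10). The PER1 call against PROG (limma adjusted p = 0.0477) held in 1 of 6 omissions of an array, with an adjusted p up to 0.231. MIR21 had 9.07, 9.08 and 8.82 with MPA, 8.59, 8.70 and 8.60 with PROG and 8.45, 8.38 and 8.51 with DEX, all above the 3 DHT arrays. Its differences were -1.09 ± 0.084, -0.73 ± 0.084 and -0.55 ± 0.084. KLF9 differed by -0.85, -0.62 and -0.47 in the same order, and the last of these lost its call in a fit of the DHT and DEX arrays alone (limma adjusted p = 0.217) and in 3 of 6 omissions (up to 0.131). EPGN was not called against MPA (-0.15) or PROG (0.01, 95% interval -0.22 to 0.24). It was lower with DHT than with DEX (-0.98 ± 0.11, limma adjusted p = 3.42e-04). RANBP3L was lower with DHT than with MPA (-1.10 ± 0.097), not called against PROG (0.31) and higher than with DEX (0.89 ± 0.097).

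Some of the widest gaps between compounds lay in genes that were not called between DHT and vehicle. ZBTB7C, a BTB zinc finger gene, had 4.98, 5.08 and 5.12 with DHT, against 6.81, 7.03 and 7.19 with MPA and 6.64, 7.10 and 6.62 with PROG. DHT was lower by -1.95 ± 0.12 and -1.73 ± 0.12 (limma adjusted p = 2.41e-07 and 1.84e-06), and its difference from vehicle was 0.33 ± 0.12 (limma adjusted p = 0.330). EMP1, an epithelial membrane protein, was lower with DHT than with MPA by -1.55, than with PROG by -1.49 and than with DEX by -0.60. Its DHT arrays all lay above its vehicle arrays, at 0.36 ± 0.089, but it was not called (limma adjusted p = 0.0811). ACSL1, an acyl-CoA synthetase, was lower by -1.43 and -1.07 against MPA and PROG and differed from DEX by 0.00, with a 95% interval of -0.10 to 0.11. SGPP2, a sphingosine-phosphate phosphatase, UNC5B, a netrin receptor, and GREB1L, a relative of GREB1, were lower with DHT than with MPA by -1.62, -1.46 and -1.51. The DHT arrays of ZBTB7C, SGPP2 and UNC5B also all lay above their vehicle arrays, without a call. ACOT6, an acyl-CoA thioesterase family member, P3H2, a prolyl hydroxylase of collagens, and HILPDA, a lipid droplet protein, were lower with DHT than with PROG by -1.33, -1.18 and -1.06. Against DEX, ANGPTL4, a secreted inhibitor of lipoprotein lipase, had 5.50, 5.51 and 5.46 with DHT and 6.10, 6.39 and 6.36 with DEX, a difference of -0.79 ± 0.082. MYPN, a sarcomeric protein, SRARP, a steroid receptor-associated protein, and PNPLA3, a lipid droplet hydrolase, were lower with DHT than with DEX by -0.80, -0.73 and -0.67. None of the genes from ACOT6 to PNPLA3 was called between DHT and vehicle. HEY2, a Notch-responsive repressor, was the reverse case, with 7.78, 7.90 and 7.86 with DHT and 6.48, 6.52 and 6.67 with MPA. Its PROG arrays were 7.02, 6.64 and 6.97, its DEX arrays 7.07, 7.19 and 7.27 and its vehicle arrays 7.54, 7.64 and 7.51. DHT exceeded MPA by 1.29 ± 0.089, PROG by 0.97 ± 0.089 and DEX by 0.67 ± 0.089, with no overlap of arrays. Over vehicle it stood at 0.28 ± 0.089, not called (limma adjusted p = 0.230). MIR328, a microRNA gene, had the largest difference above MPA, with 5.29, 4.99 and 5.64 with DHT and 4.05, 4.05 and 3.60 with MPA. The difference was 1.41 ± 0.28 (limma adjusted p = 0.00987), its arrays spread widely, and its call held in 4 of 6 omissions (up to 0.0534). Over vehicle it was not called (0.82, limma adjusted p = 0.297). THRSP was higher with DHT than with PROG by 0.95 ± 0.19 (limma adjusted p = 0.0172), a call that held in 2 of 6 omissions (up to 0.0737). In a fit of the DHT and PROG arrays alone THRSP was called too (limma adjusted p = 0.00192). RNF185 was higher with DHT than with MPA by 0.91 and SERF2 than with PROG by 0.68, both with the low DHT 3 (limma adjusted p = 0.0412 and 0.0492), and these calls held in 2 and 1 of 6 omissions.

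Most of the 17 falls were not called between compounds, 11 against MPA, 16 against PROG and 17 against DEX. AMIGO2, BCL2, ESR1, BAMBI, GPAT3 and TRERF1 were less low with DHT than with MPA. BCL2 had 8.32, 8.35 and 8.31 with MPA, under all 3 DHT arrays (0.33 ± 0.039, limma adjusted p = 1.51e-04), and ESR1 had 7.29, 7.25 and 7.31 (0.47 ± 0.065, limma adjusted p = 5.00e-04). Against PROG neither was called, with 95% intervals of -0.01 to 0.15 for BCL2 and 0.08 to 0.36 for ESR1. SOSTDC1 was the 1 fall that was lower with DHT than with PROG (-0.37 ± 0.073, limma adjusted p = 0.0155), with 4.90, 4.93 and 5.12 in the PROG arrays.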

How the data were processed

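Total RNA was amplified, labelled with biotin and hybridised to Affymetrix arrays, per the labels' protocols. The authors deposited log2 expression values, 1 column per array, and RMA and Partek are named in the submitters' processing notes, whose versions the sources used here do not give. RMA gives the arrays a like distribution, so a shift shared by most genes would not be seen, and it can compress changes of dim probe sets. Values were used as deposited. In R 4.3.3, limma 3.58.1 (lmFit and eBayes) fitted 5 group means over the 15 arrays for 14841 probe sets, with residual and prior degrees of freedom of 10 and 3.81. Tests were 2-sided, with Benjamini-Hochberg adjustment within each of 4 contrasts and intervals of 95%. The script was tested on simulated data. With 3 arrays a group, their number limits the precision.

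Group and replicate came from the sample titles. A RefSeq gene table supplied current symbols. Genes named are those raised at least 1.5-fold, the 12 largest falls, up to 5 called members of each of 29 lists, a fixed set of single genes, the 8 widest gaps of DHT 3 and the 6 largest differences each way between compounds. Other called genes, THRSP's MPA arrays and the uncalled list members in the text were chosen after their values were seen. The members and lists were chosen with earlier results of these data known, so their counts are descriptions and no list was tested. Alternatives were the 6 arrays alone, a replicate block, an intensity trend, a filter on dim probe sets, quantile normalization, all deposited probe sets, the brightest probe set of each gene, array weights, other agreement thresholds and leaving out each array.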

Additional observations from a re-analysis of the deposited data

Results flagged for a closer look

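OLR1 was picked out because its DHT arrays lay above every vehicle array and its arrays of both progestins below every one. DHT exceeded MPA by 1.00 and PROG by 0.96 on the log2 scale, both called in the limma test of the difference itself. PALMD lay above every vehicle array with DHT and below every vehicle array with DEX, and DHT exceeded DEX by 0.65. For neither gene is a test of the other compounds against vehicle given here. Arrays without overlap are common, at 12.7% of all probe sets between DHT and vehicle. In a limma fit of all 34878 deposited probe sets, 58 of the 20037 without a gene symbol were called between DHT and vehicle, 51 higher with DHT and 7 lower, beside 83 named ones. Their differences ran from -1.24 to 1.54, and what they measure is not analysed here. Groups of 3 arrays are too small for a check of single outlying arrays.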

How the results depend on the processing

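Of the called differences followed singly, all 132 from vehicle and a chosen part of those between compounds, none turned its direction. For most runs this was fixed in advance. Only quantile normalization, array weights and leaving out an array alter the difference of the group means. For the 132, whose arrays do not overlap, leaving out 1 array cannot turn it. Differences that were not called could turn near 0, as for CLDN8 between DHT and MPA (0.01 reported, -0.035 to 0.08 with 1 array left out). With the 6 arrays of each pair alone, which leaves fewer degrees of freedom, calls were 54 against vehicle (49 higher and 5 lower, where 132, 115 and 17 were reported), 292 against MPA (521 reported), 146 against PROG (254) and 39 against DEX (97), and called list members numbered 15 (26). An intensity trend gave 220 against vehicle (175 higher, 45 lower) and 166 against DEX. Without dim probe sets 36 were lower than vehicle and 147 were called against DEX, and 1 adjustment over the 3 pairs gave 162 there. Fitting all deposited probe sets gave 41 of at least 1.5-fold (25 reported). The cause of these shifts was not tested. Leaving out 1 array gave 66 to 132 calls against vehicle, 61 to 115 higher, 5 to 17 lower, 15 to 45 of at least 1.5-fold, 380 to 459 against MPA, 168 to 256 against PROG, 62 to 135 against DEX and 19 to 23 list members. Array 3 of DHT lay low on 344 probe sets at a gap over 0.2 and on 32 at one over 0.5 (139 over 0.3), and high on 414 and 14 (125). The labels give no batch, so what a shared replicate number stands for is not known. Deviations of same-numbered DHT and vehicle arrays correlated at -0.0165, -0.0435 and -0.0256, which does not settle it for single probe sets. A replicate block gave 100 calls against vehicle, 90 higher and 10 lower, and 22 of at least 1.5-fold. Of the 132 calls 112 held after quantile normalization, 122 with array weights, 97 with the block, 126 with the trend and 83 with all probe sets. Of the 132, 55 held without any 1 of the 6 arrays and 17 in none of the 6 omissions. With no detection calls, dim probe sets limit what can be read.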
